A study of Mus musculus with 12 samples.

Results

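The transgene ATF6-MER was examined without its activating drug by setting the 3 hearts titled ATF6-MER TG mouse vehicle (TG vehicle) against the 3 titled NTG mouse vehicle (NTG vehicle). These are 6 of the 12 arrays of the series and were chosen by their titles alone, and 11166 of the 18193 genes with a probe set were compared. All 6 samples were left ventricles of male C57BL/6 mice of about 30 weeks, with 1 Affymetrix whole-genome array for each heart, and none was given tamoxifen according to its title. The TG mice carry the fusion gene ATF6-MER and their NTG littermates do not. The other 6 arrays, 3 TG tamoxifen and 3 NTG tamoxifen, were used for the shared estimate of spread and for setting levels side by side; they are labelled alike except that the age of TG tamoxifen 1 is listed as 40 weeks.

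ATF6 is a membrane protein of the endoplasmic reticulum (ER). When unfolded proteins build up in the ER it is moved to the Golgi and cut, and its freed fragment enters the nucleus and raises the transcription of ER chaperones. In ATF6-MER, per the study's published description, an active ATF6 fragment is joined to the ligand-binding part of a mutant mouse estrogen receptor, which responds to tamoxifen, and a cardiomyocyte promoter drives the fusion, so that only heart muscle cells are meant to make it. Vehicle-treated TG mice are the usual control for such a drug-switched line, and the comparison asks what the fusion gene is associated with before the drug is given. The line also carries whatever its insertion does, which this comparison cannot tell apart from the fusion.

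Labels and arrays were checked before the results. The treatment field of TG vehicle 3 says tamoxifen although its title says vehicle, so results are also given without it. The array labelled NTG tamoxifen 1 read like a TG array for Esr1 and for ER chaperones, and because all 12 arrays share 1 estimate of spread, it widened the errors of those genes. Fits on 11 arrays without it, and on the 6 vehicle arrays alone, are therefore given beside the results they change. RNA quality was read from the beta-actin control probe sets, whose 3' over 5' ratio goes up as RNA degrades. It was 1.5 ± 0.178 in TG vehicle (SD, n = 3, range 1.32 to 1.68) and 2.28 ± 0.158 in NTG vehicle (range 2.12 to 2.43). The ranges did not overlap, and the exact two-sided permutation p was 0.1, the smallest that 3 against 3 arrays allow. With that ratio as a covariate, 0 genes passed the threshold in limma's fit, while 1451 had an unadjusted p under 0.05. The group and the ratio cannot be told apart among these 6 arrays, which holds for every change below. Array medians before normalization ran from 709 to 814 among the vehicle arrays.

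Esr1 is the estrogen receptor gene that supplies the drug-binding domain of the fusion, and 1 of its 3 probe sets was bright in TG hearts. Which part of the gene that probe set reads is not known here. On the log2 intensity scale the NTG vehicle arrays read 8.70, 7.15 and 7.27, all below the level of 9.42 used to filter dim probe sets. The TG vehicle arrays read 18.23, 17.96 and 17.90. The groups lay far apart, with Esr1 higher by 10.32 ± 1.49 log2 units in TG vehicle (SE, 95% interval 7.07 to 13.57, adjusted p = 0.0118). The adjusted p was 0.00012 on the 6 vehicle arrays alone and 0.0545 without TG vehicle 3 in the 12-array design, where the size was 10.38. The TG tamoxifen arrays read 16.66, 16.84 and 17.15, and all of them lay below the TG vehicle arrays. Among NTG tamoxifen arrays, the library labelled 1 read 17.71 and the others 10.88 and 9.89. The other 2 Esr1 probe sets were dim and differed by -0.15 ± 0.82 and 0.13 ± 0.33.

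Atf6 itself read 13.74, 13.55 and 13.62 in NTG vehicle and 13.26, 12.97 and 13.19 in TG vehicle. Its difference of -0.50 ± 0.21 did not pass the threshold (adjusted p = 0.181), and its other 2 probe sets differed in the opposite direction, by 0.97 ± 0.31 and 0.49 ± 0.27. Whether any of these probe sets also reads the fusion transcript is not known here. Rcan1, the calcineurin regulator called MCIP1 in the series title, read 12.83, 12.60 and 13.28 in NTG vehicle and 13.76, 13.35 and 14.14 in TG vehicle. The Rcan1 arrays did not overlap, as for 30.8% of all genes. The difference of 0.85 ± 0.45 did not pass the threshold (95% interval -0.15 to 1.84, adjusted p = 0.289). A dimmer Rcan1 probe set differed by 2.17 ± 0.63 (adjusted p = 0.163 over all probe sets).

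Over all genes, 405 of 11166 (3.63%) passed the adjusted threshold of 0.05. Of these, 155 (1.39%) were higher and 250 (2.24%) lower in TG vehicle, and 58 and 139 of them by more than 2-fold. The median change over all genes was 0.0106 log2 units, 51.1% of genes lay above 0 and 48.9% below, and 2574 (23.1%) had an unadjusted p under 0.05. Counts for gene lists below are to be read against these shares. When each array was instead centred on its median, the median gene shifted by -0.113 and the split was 75 higher and 471 lower (86.3% lower, against 61.7% in the quantile-normalized data), so the share of falls depends on the scaling. The count depended on which vehicle array was left out: it was 4 without TG vehicle 3, 2 without NTG vehicle 2, 12 without NTG vehicle 3, 67 without NTG vehicle 1, 417 without TG vehicle 2 and 625 without TG vehicle 1. The fit on the 6 vehicle arrays called 17 genes (0.152%), 4 higher (0.0358%) and 13 lower (0.116%), and 13 of the 17 were among the 405. The fit without NTG tamoxifen 1 called 812 (7.27%), which included all 405. Vehicle arrays did not overlap between the groups for 3444 genes (30.8%).

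**Figure D1:**
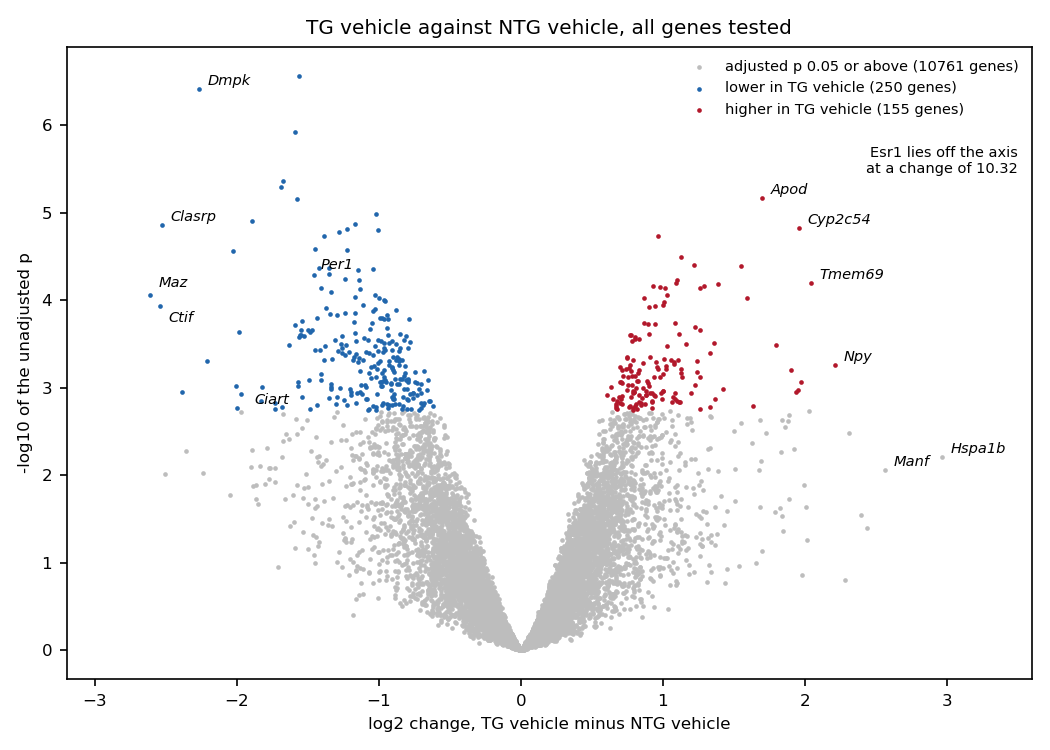
Each point is 1 of the 11166 genes, with the log2 change (TG vehicle minus NTG vehicle) on the x axis and -log10 of the unadjusted p from limma on the y axis. The 155 genes called higher and the 250 called lower are coloured; Manf and Hspa1b have large changes but stay grey, and Esr1 lies beyond the right edge at 10.32.

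ER chaperones are the classical targets of ATF6, which acts with the factor NF-Y through the ER stress response element (ERSE). The ERSE was searched as CCAAT and CCACG with 9 bases between them, on both strands of the 250 bases before each start site in the RefSeq promoter table (GRCm38.p6). It was found in 37 of 32851 promoters (0.113%) and overlapped none of the other motifs searched. Windows from 4 chaperone genes that hold it are shown because ATF6 is known to act on these genes through it. Capitals mark the element or its complement, all windows run 5′ to 3′ along the gene's strand, and each lies upstream of the start site. Hspa5 lies at chr2:34772010-34772058 (plus strand), Hsp90b1 at chr10:86705518-86705671 (minus), Calr at chr8:84847060-84847108 (minus) and Canx at chr11:50325785-50325833 (minus).
Hspa5: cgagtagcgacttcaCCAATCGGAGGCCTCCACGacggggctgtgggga
Hsp90b1: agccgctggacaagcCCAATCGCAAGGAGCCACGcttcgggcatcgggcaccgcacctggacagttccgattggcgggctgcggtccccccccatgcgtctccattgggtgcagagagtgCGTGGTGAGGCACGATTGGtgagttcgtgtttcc
Calr: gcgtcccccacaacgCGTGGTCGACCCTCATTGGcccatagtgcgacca
Canx: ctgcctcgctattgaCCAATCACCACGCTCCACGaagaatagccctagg

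Hspa5, the main ER chaperone (BiP, GRP78) with an ERSE 65 bases before its start, read 15.95, 16.07 and 16.19 in NTG vehicle and 16.38, 15.76 and 15.94 in TG vehicle. The arrays overlapped, and the difference was -0.05 ± 0.52 (95% interval -1.18 to 1.09, adjusted p = 0.972). The TG tamoxifen arrays read 18.48, 18.48 and 18.37. Without the drug, Hspa5 did not differ beyond the spread between arrays on its brightest probe set, with an interval that covers changes of either sign. The standard error was 0.175 without NTG tamoxifen 1 and 0.207 on the vehicle arrays alone (adjusted p = 0.892 and 0.911 by limma). A further Hspa5 probe set did not overlap, at 15.56 to 15.70 in NTG vehicle and 15.80 to 16.23 in TG vehicle. Its difference was 0.45 ± 0.55 (adjusted p = 0.756 over all probe sets), and that of a dimmer one was 0.12 ± 0.25.

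The other 3 genes shown lay on both sides of 0, and they were named for their promoters after their values had been seen. Hsp90b1, the ER form of HSP90 with a pair of such elements, read 15.13 to 15.16 in NTG vehicle and 15.62 or higher in TG vehicle, a difference of 0.66 ± 0.63 (adjusted p = 0.57, and 0.0697 without NTG tamoxifen 1). Canx (calnexin), a lectin chaperone of the ER membrane, read 14.23, 14.15 and 14.11 against 15.04, 14.70 and 14.91, a difference of 0.73 ± 0.24 (adjusted p = 0.111). Calr (calreticulin), the soluble relative of calnexin, lay the other way, at 15.87, 15.74 and 15.76 in NTG vehicle and 14.66, 15.10 and 15.13 in TG vehicle, a difference of -0.83 ± 0.38 (adjusted p = 0.221). None of these passed in the 12-array fit. The vehicle arrays of Hsp90b1, Canx and Calr did not overlap, as for 30.8% of all genes. Without NTG tamoxifen 1 the calls were higher for Canx (adjusted p = 0.0346) and lower for Calr (adjusted p = 0.0201). Of the 35 genes with an ERSE in this window, 14 were tested, 0 were called in the 12-array fit, and their median change was 0.00502 against 0.0126 for all 9026 tested genes that matched the promoter table.

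The wider list of ER chaperones and folding enzymes held 35 tested genes, of which 0 were called higher and 0 lower in the 12-array fit, with 7 at an unadjusted p under 0.05 (23.1% over all genes) and a median of 0.088. Without NTG tamoxifen 1, 6 of the 35 were called higher (over all genes 3.09% were) and 3 lower (4.18%). The largest member was Manf, a secreted ER-stress protein that protects neurons and heart muscle. Manf read 13.26, 12.85 and 12.89 in NTG vehicle and 15.62, 15.15 and 15.94 in TG vehicle. The difference was 2.57 ± 0.81 (5.92-fold, adjusted p = 0.0966), and the adjusted p was 0.019 on the 6 vehicle arrays and 0.00167 without NTG tamoxifen 1. The TG tamoxifen arrays read 18.09, 18.01 and 17.95, above every TG vehicle array.

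Protein disulfide isomerases, which form and shuffle disulfide bonds, lay on both sides of 0, and those given here were named after their values had been seen. Pdia4 read 9.74, 9.61 and 9.38 in NTG vehicle and 10.87, 11.07 and 11.88 in TG vehicle, a difference of 1.70 ± 0.87 (adjusted p = 0.265, and 0.0101 without NTG tamoxifen 1), while TG tamoxifen arrays read 14.95 to 15.22. Pdia3 differed by 0.88 ± 0.46 (adjusted p = 0.274, and 0.0185 without that array). P4hb, the founding member of the family, differed by -0.46 ± 0.63 (adjusted p = 0.704) and Pdia5 by -0.06 ± 0.32 (adjusted p = 0.939). Erp44, which retains client proteins in the early secretory pathway, differed by 0.77 ± 0.20 and had the smallest adjusted p of the list in the 12-array fit (0.0554). Among the 34 genes of ER translocation and glycosylation, Dpm1, which makes the mannose donor for glycosylation, rose by 0.86 ± 0.16 (adjusted p = 0.0257) and Spcs2, a subunit of signal peptidase, rose by 0.75 ± 0.15 (adjusted p = 0.0321). Sec62 of the translocation channel was lower, with a change of -1.22 ± 0.30 (adjusted p = 0.047). None of these 3 passed without TG vehicle 3 or without any 1 of the NTG vehicle arrays.

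The list of stress sensors and the factors they switch on gave 1 call higher and 0 lower among 22 tested genes, with a median of -0.239. The call was Eif2a, an initiation factor distinct from the eIF2 subunit that ER stress phosphorylates, which rose by 0.96 ± 0.21 (adjusted p = 0.0348), from 12.08, 12.07 and 11.97 to 12.82, 12.85 and 13.33. ER-associated degradation had 0 calls among its 28 members tested (4 at an unadjusted p under 0.05) and 3 calls higher without NTG tamoxifen 1, among them Herpud1 (0.88 ± 0.37, adjusted p = 0.184 with all 12 arrays and 0.0311 without that array). The 25 ATF4 targets and aminoacyl-tRNA synthetases had 0 calls, 1 at an unadjusted p under 0.05, and a median of -0.00635. Estrogen-responsive genes, chosen since the fusion holds a receptor domain, had 0 calls among 13 tested, with 5 at an unadjusted p under 0.05 (23.1% over all genes) and a median of 0.0278.

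**Figure D2:**
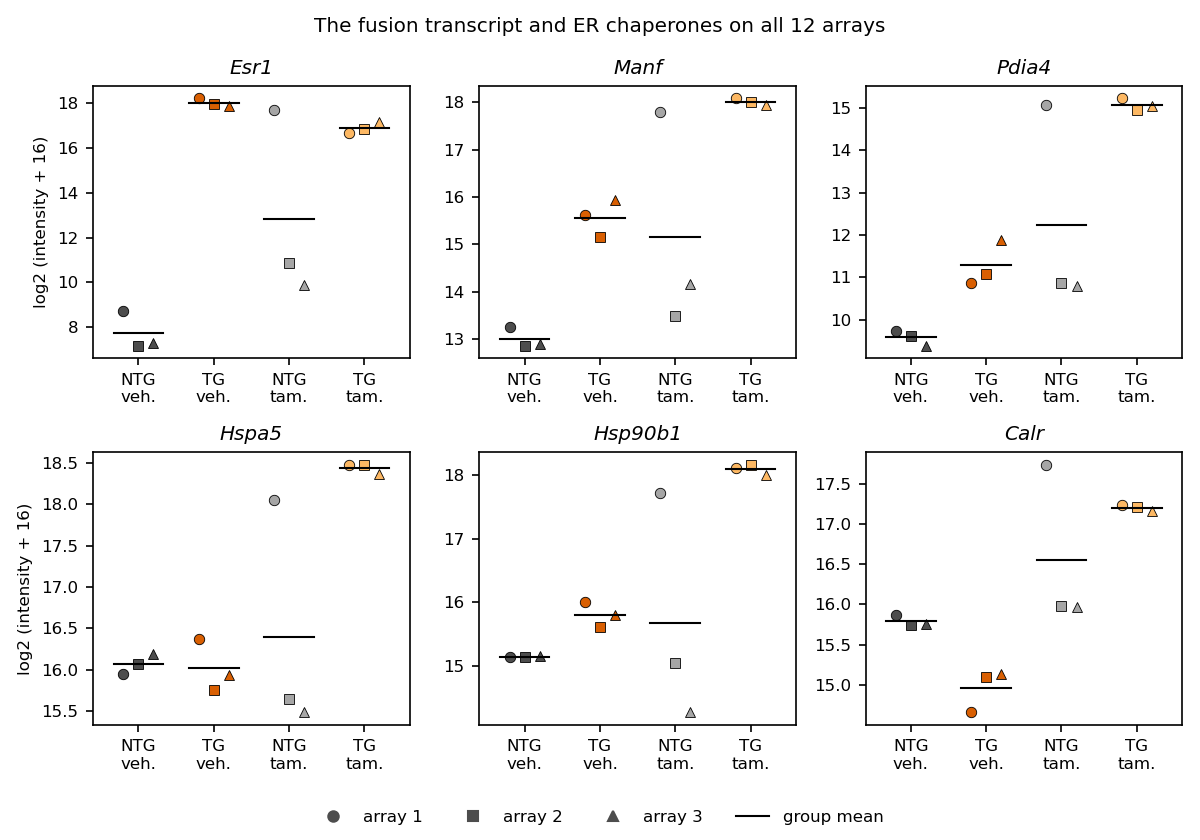
Log2 (intensity + 16) of Esr1 and 5 ER genes on all 12 arrays, by group, with 1 marker shape per array number and a bar at each group mean. Esr1 is at least as high in TG vehicle as in TG tamoxifen, Hspa5 in TG vehicle overlaps NTG vehicle, Manf and Pdia4 lie between, and array 1 of NTG tamoxifen sits with the TG tamoxifen arrays.

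The clock list had the second largest share of calls lower among lists with 10 or more tested genes. The clock is a feedback loop in which ARNTL (BMAL1) and CLOCK switch on the Per and Cry genes, whose products then close the loop. They also switch on the output factors Dbp, Tef and Hlf. These transcripts rise and fall through the day, the Arntl transcript opposite to the others. The labels used here give no time of day for the hearts. Of 17 tested clock genes, 4 fell (23.5%, against 2.24% over all genes) and 0 rose, and the median was -0.874. ARNTL and CLOCK bind the E-box, and DBP, TEF and HLF bind the D-box. Both were searched in the same 250 bases, the E-box as CACGTG, found in 6.02% of promoters, and the D-box as TTATGTAA or TTATGCAA, found in 1.5%. Neither overlapped the other or the ERSE in any promoter. Over all tested genes with an E-box 3.43% of 904 were called, and with a D-box 3.7% of 108, against 3.56% of the 9026 that matched the promoter table. The promoter windows of the 4 clock genes that fell are shown since each held at least 1 of these motifs, in capitals. They lie upstream of the start site at chr3:95882252-95882359 (Ciart, minus strand), chr11:69098768-69098947 (Per1, plus), chr15:81802531-81802566 (Tef, plus) and chr4:151044801-151044885 (Per3, minus).
Ciart: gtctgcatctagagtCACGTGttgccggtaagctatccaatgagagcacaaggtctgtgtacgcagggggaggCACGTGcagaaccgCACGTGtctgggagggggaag
Per1: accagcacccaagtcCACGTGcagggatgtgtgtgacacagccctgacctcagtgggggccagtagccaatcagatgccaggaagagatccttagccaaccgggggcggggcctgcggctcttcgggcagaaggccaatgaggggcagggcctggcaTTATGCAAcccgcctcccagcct
Tef: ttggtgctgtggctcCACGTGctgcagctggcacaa
Per3: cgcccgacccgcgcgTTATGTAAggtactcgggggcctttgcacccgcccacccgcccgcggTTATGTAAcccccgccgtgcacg

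Per1, a core repressor of the clock with an E-box and a D-box, read 12.15, 12.77 and 12.75 in NTG vehicle and 11.23, 11.34 and 10.74 in TG vehicle. It was lower by 2.74-fold (log2 change -1.46 ± 0.23, adjusted p = 0.0191). Ciart, a repressor of CLOCK and ARNTL with 3 E-boxes, read 12.40, 12.50 and 12.48 against 10.16, 10.98 and 10.78. Its change was -1.82 ± 0.42 (adjusted p = 0.0404), and it also passed on the 6 vehicle arrays alone (adjusted p = 0.0465). All TG vehicle arrays of both genes lay below all NTG vehicle arrays, as held for all 250 genes called lower.

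Tef, an output factor with 1 E-box, read 14.59, 14.59 and 14.50 in NTG vehicle and 13.37, 13.66 and 12.95 in TG vehicle, a change of -1.24 ± 0.25 (adjusted p = 0.0289). Per3, with a pair of D-boxes, read 11.89, 12.02 and 11.98 against 10.38, 11.41 and 10.09, a change of -1.34 ± 0.31 (adjusted p = 0.0414). Of the 17 tested clock genes, 12 lay below 0 and 5 above. Cry1 differed by 0.51 and Cry2 by -0.48, and neither passed. Some relatives of Tef and Per3 lay below 0 without passing. These and the Cry genes were named after their values had been seen. Per2 differed by -1.51 ± 0.39 (adjusted p = 0.0545), Hlf by -1.58 ± 0.43 (adjusted p = 0.0628) and Dbp by -1.90 ± 0.55 (adjusted p = 0.0766). Without NTG tamoxifen 1 these 3 passed too, and 8 of the 17 genes were called lower and 1 higher, the last being the repressor Nfil3 (0.95, adjusted p = 0.0239).

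Arntl, also named after its values had been seen, lay opposite. It read 9.33, 9.67 and 10.10 in NTG vehicle and 11.79, 11.24 and 12.12 in TG vehicle, a difference of 2.02 ± 0.94 that did not pass (95% interval -0.05 to 4.08, adjusted p = 0.227, and 0.0587 on the 6 vehicle arrays). The TG tamoxifen arrays lay further out, with Arntl at 13.14 to 13.93 and Per3 at 9.35 to 9.97. In the drugged NTG group the library labelled 1 stood apart for the clock genes as it did for Esr1, with Ciart at 11.05 against 12.76 and 13.04, and Arntl at 12.84 against 7.53 and 10.29. The number of clock genes called lower was 0 when TG vehicle 3, NTG vehicle 2 or NTG vehicle 3 was left out, with medians of -0.791, -0.757 and -0.842, and 1 without NTG vehicle 1.

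**Figure D3:**
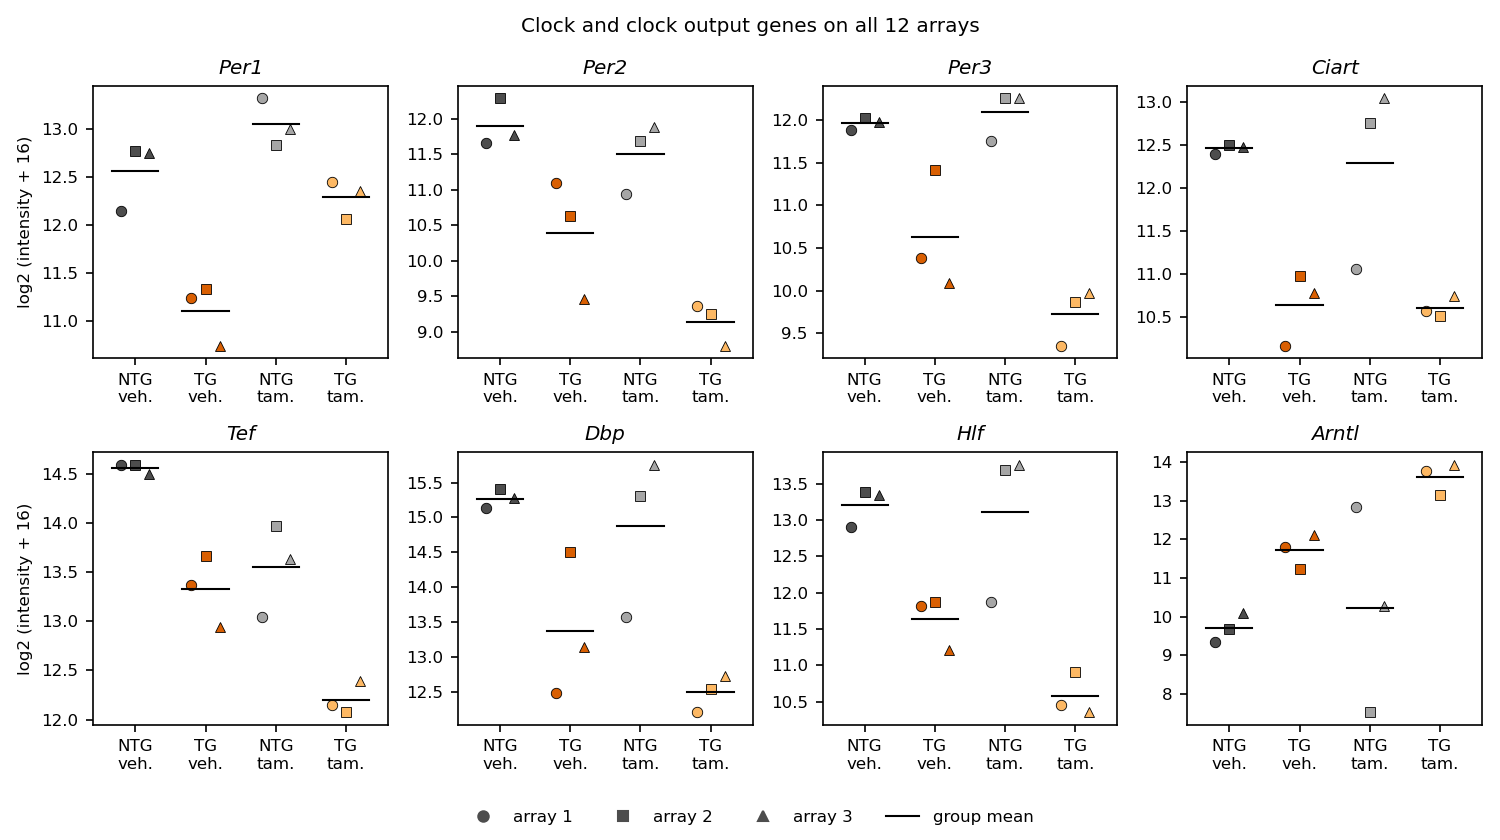
Log2 (intensity + 16) of 8 clock and clock output genes on all 12 arrays, by group, with 1 marker shape per array number and a bar at each group mean. In every panel but Arntl the TG vehicle arrays lie below all NTG vehicle arrays, and in Arntl they lie above them. Over all genes the vehicle arrays did not overlap for 30.8%.

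Markers of smooth muscle and pericytes, the cells of the vessel wall, had the largest share of calls lower of any list of 10 or more tested genes: 4 of 13 (30.8%, against 2.24% over all genes), with 0 higher and a median of -0.794. In whole-ventricle RNA, fewer cells of a type and less RNA per cell cannot be told apart. Myh11, the smooth muscle myosin heavy chain, read 11.90, 11.61 and 11.76 in NTG vehicle and 9.98, 10.68 and 10.17 in TG vehicle, a change of -1.48 ± 0.37 (adjusted p = 0.0489). Smtn (smoothelin) of the contractile apparatus fell by 1.20 on the log2 scale (adjusted p = 0.0421), Cspg4 (NG2), a pericyte proteoglycan, by 1.24 (adjusted p = 0.0452) and Notch3, the Notch receptor of arterial smooth muscle, by 0.97 (adjusted p = 0.0298). Other defining markers, named after their values had been seen, did not pass. Acta2, smooth muscle actin, read 15.48, 15.63 and 16.52 in NTG vehicle and 13.98, 15.88 and 15.18 in TG vehicle, and these overlapped (-0.86 ± 0.44, adjusted p = 0.266). Rgs5, a pericyte marker, differed by -0.62 ± 0.30 (adjusted p = 0.238). Without TG vehicle 3, or any 1 of the NTG vehicle arrays, 0 of the 13 passed, with medians from -0.825 to -0.672, while 2 passed without TG vehicle 1 and 7 without TG vehicle 2.

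Other cell types gave 2 calls in the endothelial list and none among fibroblasts and leukocytes. Endothelial markers had 1 of 20 higher, Cldn5 (claudin 5 of the endothelial tight junction, 0.82 ± 0.18, adjusted p = 0.0387), and 1 lower, the receptor Tie1 (-1.13 ± 0.19, adjusted p = 0.0191), with 9 at an unadjusted p under 0.05, 13 below 0 and a median of -0.154. Fibroblast and matrix genes had 0 of 28 called (8 at an unadjusted p under 0.05, median 0.0372) and macrophage and leukocyte genes 0 of 23 (6 at an unadjusted p under 0.05, median 0.129). Ventricular cardiomyocyte markers, which check the labelled tissue, were bright on every array, with 0 of 16 called, 1 at an unadjusted p under 0.05 and a median of -0.0296. Myl2, the ventricular myosin light chain, read 18.46, 18.48 and 18.59 in NTG vehicle and 18.51, 18.42 and 18.51 in TG vehicle. The 28 sarcomere and Z-disc genes had 0 calls and 6 at an unadjusted p under 0.05.

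**Figure D4:**
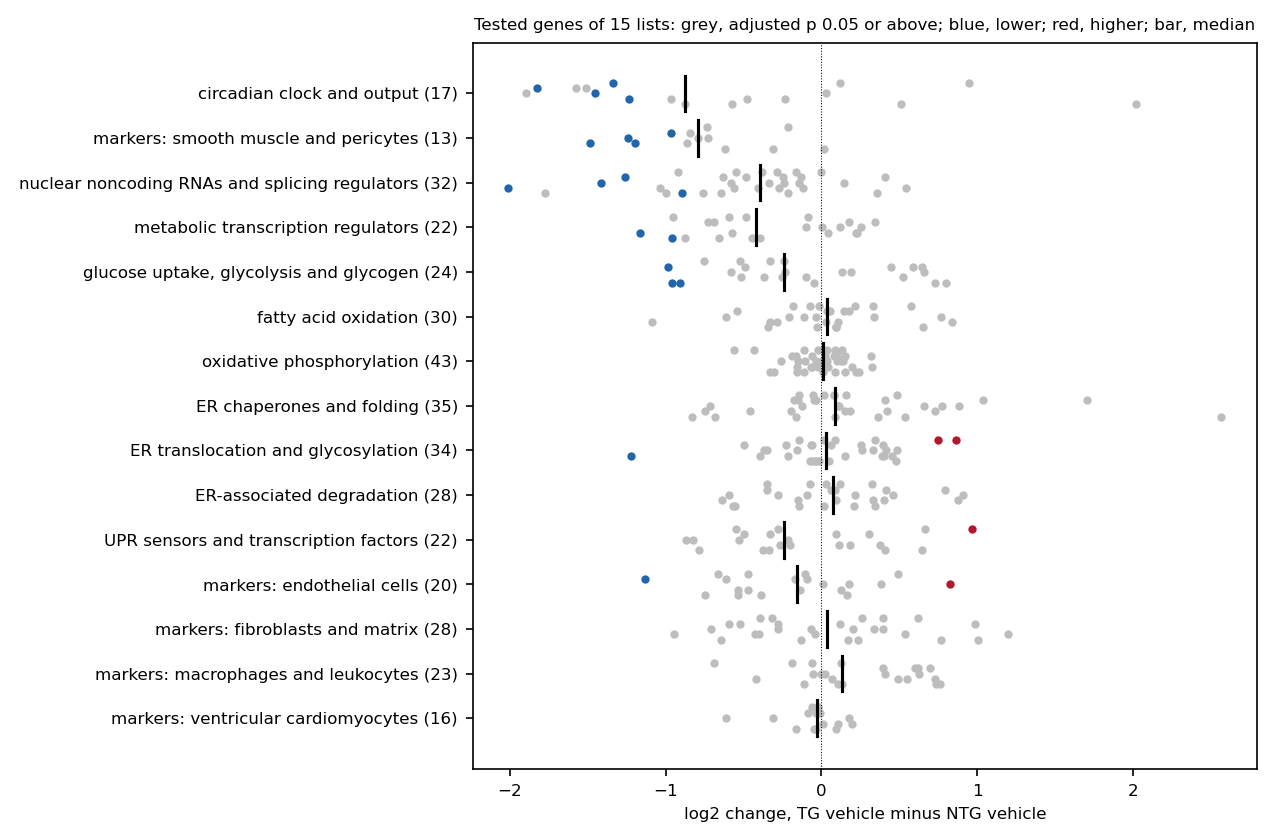
Log2 change (TG vehicle minus NTG vehicle, x axis) of each tested gene in 15 lists (rows, with the number of tested genes), coloured where the adjusted p was under 0.05, with a bar at each list's median. The clock list (median -0.874) and the smooth muscle and pericyte list (median -0.794) lie furthest to the left, and oxidative phosphorylation and ventricular markers sit close to 0.

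The largest falls came from genes of many functions. Dmpk, a kinase of heart and skeletal muscle whose repeat expansion causes myotonic dystrophy, had the smallest adjusted p among them. It read 15.73, 15.91 and 15.94 in NTG vehicle and 13.82, 13.73 and 13.23 in TG vehicle, a 4.81-fold fall (log2 change -2.27 ± 0.22, adjusted p = 0.00214). Its TG tamoxifen arrays read 12.57, 12.30 and 12.74, and NTG tamoxifen 14.58 to 15.27. Dmpk thus lay lower in TG than in NTG hearts with and without the drug.

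Maz, a zinc finger activator, read 11.37, 11.78 and 10.67 in NTG vehicle and 9.77, 7.84 and 8.36 in TG vehicle, the largest fall of all (-2.61 ± 0.44, adjusted p = 0.0208). Ctif, which acts in translation of newly exported mRNA, changed by -2.54 ± 0.45 (adjusted p = 0.0226), with TG vehicle 2 at 9.38 above TG vehicle 1 and 3 at 7.25 and 7.27. Clasrp, which binds a kinase of splicing factors, changed by -2.53 ± 0.35 (adjusted p = 0.0118) and stayed called on the 6 vehicle arrays (adjusted p = 0.017). The long noncoding RNA Malat1 of nuclear speckles read 15.86, 16.55 and 16.88 against 15.20, 14.71 and 13.36 (-2.01 ± 0.46, adjusted p = 0.0399), and each of its other 6 probe sets had a change below 0, from -1.55 to -0.06.

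The others, set in order here after they had been selected by size, have varied roles. Tns2 (tensin 2), a focal adhesion protein, changed by -2.03 ± 0.30 (adjusted p = 0.0147), and Cdc42bpb, a kinase of the same family as Dmpk, by -1.99 ± 0.38 (adjusted p = 0.0277). The tyrosine kinase Jak3 changed by -1.97 ± 0.46 (adjusted p = 0.0426) and the ephrin receptor Ephb3 by -1.73 ± 0.43 (adjusted p = 0.0489). Sntb2 (syntrophin), which binds the dystrophin complex, was 3.99-fold lower (adjusted p = 0.0486) and Shank3, a scaffold protein, by -1.89 ± 0.26 (adjusted p = 0.0118). The lipid transporter Abca7 (-2.21), the ubiquitin ligase subunit Fbxo42 (-2.39) and Rusc2 (-1.83) completed the 15 largest falls with Ciart. The other Fbxo42 probe sets, above the filter level, differed by -0.21 ± 0.31 and 0.13 ± 0.36, so its fall rests on a single probe set. Of the 250 genes lower, 21 had a TG vehicle mean below the filter level, so their fold sizes are uncertain.

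The largest called rise after Esr1 was that of Npy, from a level below the filter. Npy (neuropeptide Y), a transmitter of cardiac sympathetic nerves, read 8.25, 8.33 and 8.69 in NTG vehicle and 10.60, 10.70 and 10.61 in TG vehicle, a rise of 2.21 ± 0.47 (adjusted p = 0.0338, and 0.0162 on the 6 vehicle arrays). The NTG tamoxifen arrays read 10.67, 10.41 and 10.41, close to TG vehicle, and TG tamoxifen read 9.49, 8.04 and 10.62. NTG vehicle thus had the lowest mean, although the TG tamoxifen array at 8.04 read below every NTG vehicle array. The other markers of nerves and Schwann cells had no call among the 5 further genes tested.

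Apod (apolipoprotein D), a lipid-binding protein, read 11.24, 10.93 and 11.12 in NTG vehicle and 12.38, 13.14 and 12.87 in TG vehicle, a rise of 1.70 ± 0.22 (adjusted p = 0.0112), and was at 11.24 to 11.82 in all 6 tamoxifen arrays. The 3 TG vehicle arrays lay above all 9 others. Cyp2c54, a cytochrome P450, read 8.49, 7.35 and 8.26 against 9.85, 9.99 and 10.13 (1.96 ± 0.28, adjusted p = 0.0118), and its TG tamoxifen arrays read 10.89 to 11.08 while NTG tamoxifen read 8.41 to 9.10. Scoc, a coiled-coil protein of the Golgi that acts in autophagy, rose by 1.39 ± 0.23 (adjusted p = 0.0191), from 10.60 to 11.10 in NTG vehicle to 11.89 to 12.41 in TG vehicle. Like Cyp2c54, it was high on all 6 TG arrays.

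Further rises were Tmem69 (2.05 ± 0.34), a transmembrane protein, and Gria2 (1.55 ± 0.24), a glutamate receptor subunit. Tmem33, an ER membrane protein, rose by 1.64 ± 0.40 (adjusted p = 0.0474), but its change was -0.56 with the beta-actin ratio as a covariate. The RNA-binding protein Nanos1 (1.95), the exocyst relative Exoc3l2 (1.94), the enzyme Allc (1.90), the homeobox factor Dlx3 (1.80), the skin caspase Casp14 (1.59) and the deadenylase Toe1 (1.42) rose as well, and all had NTG tamoxifen means nearer to TG vehicle than to NTG vehicle. Hbb-b2, a beta globin, rose by 1.97 ± 0.44 (adjusted p = 0.0387) on a probe set that may match several transcripts, while its other probe set differed by -0.15 ± 0.39. Exoc3l2 has another probe set called the other way when all probe sets were tested. The other Toe1 probe set also lay the other way, at -0.73 ± 0.37. Of the 155 genes higher, 14 had an NTG vehicle mean below the filter level.

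Of 24 genes of glucose uptake, glycolysis and glycogen, 3 fell (2.24% over all genes) and 0 rose, with 14 at an unadjusted p under 0.05 and a median of -0.237. Hk1 (hexokinase 1), which traps glucose in the cell, read 14.87, 14.65 and 14.69 in NTG vehicle and 13.40, 14.27 and 13.66 in TG vehicle (-0.96 ± 0.21, adjusted p = 0.0387). Pygb, a glycogen phosphorylase, changed by -0.98 ± 0.22 (adjusted p = 0.0387) and Pfkl, the liver-type phosphofructokinase, by -0.91 ± 0.22 (adjusted p = 0.0438). The other Pfkl probe sets, above the filter level, differed by -0.28 ± 0.23 and 0.185 ± 0.37. The insulin-regulated glucose carrier Slc2a4 did not pass (-0.37 ± 0.17, adjusted p = 0.225). Among 22 metabolic transcription regulators (6 at an unadjusted p under 0.05), 2 fell and 0 rose: Ppard, a nuclear receptor that drives fatty acid use (-1.16 ± 0.23, adjusted p = 0.0284), and Tead1, a muscle gene activator (-0.96 ± 0.19, adjusted p = 0.0303). The other Tead1 probe set, dimmer but above the filter level, differed by 0.20 ± 0.37.

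The lists of mitochondrial fuel oxidation gave 1 call. Fatty acid oxidation had 0 of 30 (3 at an unadjusted p under 0.05, median 0.0387), and oxidative phosphorylation 0 of 43 (3 at an unadjusted p under 0.05, median 0.00918). The TCA cycle, with 10 of 24 at an unadjusted p under 0.05 and a median of 0.0684, had 1 call, the isocitrate dehydrogenase subunit Idh3a, which rose by 0.76 ± 0.17 (adjusted p = 0.0396) from 16.60, 16.35 and 16.23 to 17.27, 16.91 and 17.27. The glycolysis calls were lost without TG vehicle 1, TG vehicle 3 or any 1 of the NTG vehicle arrays, where 0 of the 24 passed.

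Nuclear noncoding RNAs and splicing regulators had 4 of 32 lower and 0 higher, with a median of -0.393 and 28 of the 32 below 0 (48.9% over all genes). Besides Malat1 these were Sfpq, a paraspeckle protein (-1.26 ± 0.24, adjusted p = 0.0278), Rbm25, a splicing factor (-1.41 ± 0.29, adjusted p = 0.0304), and Son, a nuclear speckle scaffold (-0.90 ± 0.21, adjusted p = 0.0446). Sfpq read 13.31, 13.71 and 13.97 in NTG vehicle and 12.72, 12.46 and 12.04 in TG vehicle. Its other probe sets, all above the filter level, differed by less, from -0.84 ± 0.35 to 0.07 ± 0.31. With the beta-actin ratio as a covariate the list's median was 0.424 and Rbm25 changed sign to 0.35. Group and ratio cannot be told apart among the vehicle arrays, so a dependence of the list's direction on that ratio was not tested. The list's calls numbered 0 when TG vehicle 3 was left out, likewise for NTG vehicle 2 and NTG vehicle 3, 1 without TG vehicle 2 or NTG vehicle 1, and 9 without TG vehicle 1. Son was 0.0048 when a gene's probe sets were averaged.

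Immediate early and stress response genes had 2 of 26 lower and 0 higher. Egr1, which is switched on within minutes of many stimuli, read 13.06, 13.12 and 12.40 in NTG vehicle and 11.21, 11.40 and 11.84 in TG vehicle (-1.38 ± 0.27, adjusted p = 0.0289), and Jund of the AP-1 complex changed by -1.01 ± 0.20 (adjusted p = 0.0306). Hspa1b, the inducible cytosolic HSP70, had the second largest positive change of the 11166 genes but did not pass (2.97 ± 0.89, adjusted p = 0.0832). Its NTG vehicle arrays read 10.04, 10.07 and 10.16, while TG vehicle read 15.97, 11.20 and 12.00, so the size came mostly from TG vehicle 1. Dnajb5, a cochaperone, fell by 0.94 (adjusted p = 0.0244), yet another of its probe sets differed by 1.33 ± 0.30.

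Single calls came from further lists. Jph2 (junctophilin 2), which holds the sarcoplasmic reticulum to the T-tubule, read 15.04, 14.92 and 15.13 in NTG vehicle and 14.12, 14.05 and 13.78 in TG vehicle, a change of -1.04 ± 0.16 (adjusted p = 0.0179), the 1 call among 25 calcium handling and ion channel genes. Its other probe set, dimmer but above the filter level, differed the other way, by 1.04 ± 0.29, so the direction for Jph2 depends on the probe set. The autophagy kinase Ulk1 changed by -1.24 ± 0.20 (adjusted p = 0.0191) and Gabarapl2, an ATG8-family protein of autophagosomes, by 0.78 ± 0.17 (adjusted p = 0.0352). The proteasome subunit Psmb2 rose by 0.76 ± 0.16 (adjusted p = 0.0345), and 27 of the 32 proteasome genes lay above 0 (51.1% over all genes), with a median of 0.202 and 7 at an unadjusted p under 0.05. Ifit1, an interferon-induced gene, changed by -1.35 ± 0.22 (adjusted p = 0.0191), the 1 call of 23. Ccnd2 (cyclin D2) changed by -1.34 ± 0.31 (adjusted p = 0.0403), and 1 dim probe set of 7 was called the other way when all were tested. The lists of fetal and hypertrophy genes (22 tested, 2 at an unadjusted p under 0.05) and of calcineurin and NFAT genes (17 tested, 3 at an unadjusted p under 0.05) had 0 calls.

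The genotype contrast on tamoxifen takes its means from other arrays than the vehicle contrast. Both share each gene's estimate of spread, which favours calling the same genes in both, so the counts of calls are not independent of each other. Of the 250 genes lower in TG vehicle, 216 (86.4%) also lay lower in TG tamoxifen than in NTG tamoxifen, against 53.4% of all genes, and 171 (68.4%) were called lower there, against 20.6%. Of the 155 genes higher, 117 (75.5%) lay higher on the drug, against 46.6%, and 71 (45.8%) were called, against 19%. The number called the opposite way was 10 of the 250 and 7 of the 155. Without NTG tamoxifen 1 the calls were 168 of 250 and 71 of 155, where the background was 21.9% and 20.9%.

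Each tamoxifen array was also placed between the vehicle means, with 0 at the NTG vehicle mean and 1 at the TG vehicle mean of each gene. For the 250 lower genes the median position was 0.252, 0.108 and 0.113 on the NTG tamoxifen arrays and 0.995, 1.01 and 1.12 on the TG tamoxifen arrays. For the 155 higher genes it was 0.426, 0.206 and 0.342 against 0.793, 0.839 and 0.86. The vehicle arrays set the scale, so their own positions are no result. For 65 of the 250 (26%) and 46 of the 155 (29.7%), NTG vehicle was the extreme group, with its 3 arrays beyond all 9 others, and for 44 and 49 TG vehicle was. All 250 and all 155 already had vehicle arrays that did not overlap. The share over all genes was not counted, so these numbers only describe the called genes.

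**Figure D5:**
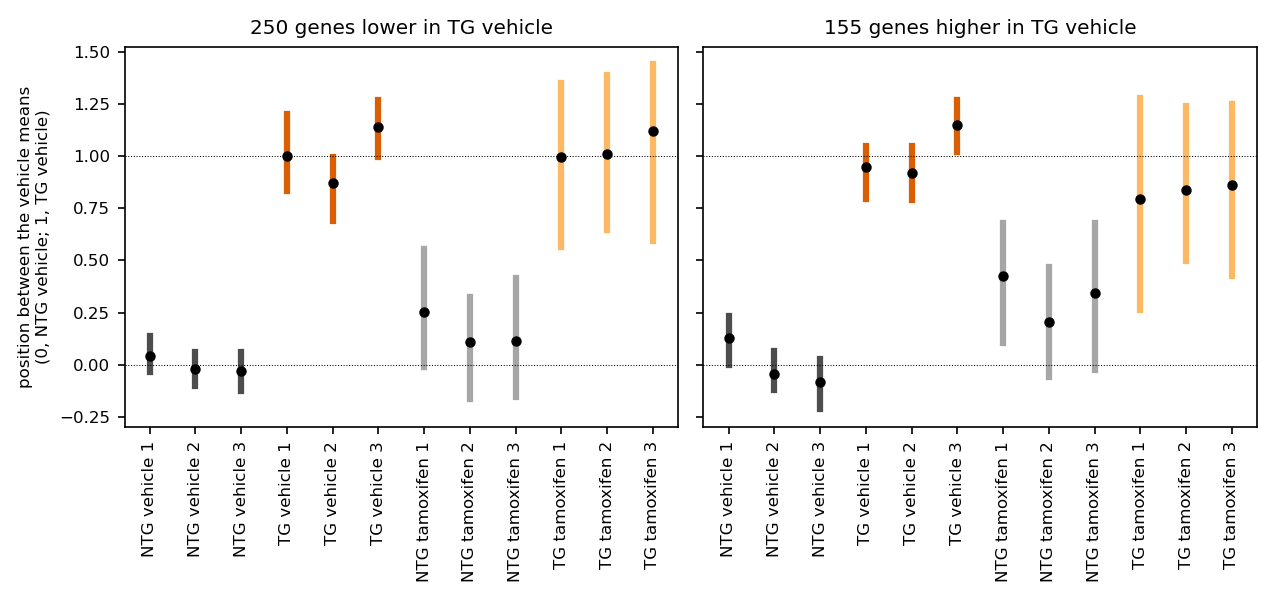
Position of each of the 12 arrays on the scale from the NTG vehicle mean (0) to the TG vehicle mean (1), as the median over genes (points) and the interquartile range (bars), for the 250 genes lower and the 155 genes higher in TG vehicle. TG tamoxifen arrays have medians of 0.793 to 1.12 and NTG tamoxifen arrays of 0.108 to 0.426.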

How the data were processed

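Left ventricular RNA of 12 mice was measured on 12 arrays, 3 for each of 4 groups taken from the titles, and 6 arrays were compared. The authors deposited 1 intensity per probe set and array, on a linear scale, in the series' value table. Each array's mean, after the top and bottom 2% were trimmed, came to 2500, which shows a scaling per array before deposit; the summarisation software is not given in the sources used here. Probe sets were named from the platform annotation supplied with the series: of 45101, 64 were controls, 34945 had 1 symbol, 932 several and 9160 none.

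Intensities were taken as log2(value + 16) and quantile-normalized. The brightest probe set stood for its gene, and genes under the 50th percentile of probe-set means (log2 9.423, an intensity of 670.3) were left out. Means of the 4 groups were fitted with limma 3.58.1 in R 4.3.3 on all 12 arrays (8 residual degrees of freedom), with Benjamini-Hochberg adjustment over the 11166 genes and a threshold of 0.05. Errors beside a change are standard errors, and differences are TG minus NTG. The offset understates changes of dim genes, and levels of different probe sets are not compared. The fits on 6 or 11 arrays and those without 1 array kept the normalization and the genes tested. Scripts were tested on simulated data.

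The genes named were Esr1, Atf6, Rcan1 and Hspa5, the 15 largest rises and falls among called genes with separate arrays (predicted genes passed over), and up to 4 genes of each of 41 lists by smallest adjusted p, or up to 3 where none passed. Members, lists and rule were chosen with earlier results of these data known, so counts over lists are descriptions. Myl2, as a check of the tissue, and Nfil3 and Slc2a4 were named outside the rule, after their values had been seen. Each array held a separate heart per the labels; replicate numbers did not pair mice, the correlations of same-numbered deviations being -0.0256, -0.0329 and 0.0144. The alternatives were other offsets, scalings, filters, probe-set rules, group assignments and variance models, a replicate block, the beta-actin ratio as a covariate, and leaving out each array.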

Additional observations from a re-analysis of the deposited data

Results flagged for a closer look

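For 14 of the genes described, the genotype effect (TG minus NTG) on tamoxifen differed from that without it, by an interaction term in the 12-array limma fit adjusted over all 11166 genes. Values are the effect on the drug minus the effect on vehicle, in log2 units. No cause was tested, and NTG tamoxifen 1 and TG vehicle 3 enter all of these values. Only described genes already called on vehicle were considered, and the same vehicle effect is subtracted in each value. That selection favours values above 0 for genes that fell and below 0 for genes that rose, so the signs are descriptions.

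Genes lower in TG than in NTG hearts on vehicle, but not on the drug, came first. Malat1 differed by 3.83 (adjusted p = 0.0107), with an effect of -2.01 on vehicle and 1.82 on the drug, and Rbm25 by 3.14 (adjusted p = 0.00645), with -1.41 and 1.73. Both effects thus changed sign between the treatments. Clasrp differed by 2.94 (adjusted p = 0.0107), Abca7 by 2.28 (adjusted p = 0.0399), Ifit1 by 2.26 (adjusted p = 0.00645) and Egr1 by 2.09 (adjusted p = 0.012).

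Genes that rose in undrugged TG hearts mostly had values below 0, which their selection favours. Exoc3l2 differed by -3.5 (adjusted p = 0.0112) and Npy by -3.33 (adjusted p = 0.0135), with effects on the drug of -1.56 and -1.11. Allc differed by -2.42 (adjusted p = 0.022), Dlx3 by -2.26 (adjusted p = 0.018), Toe1 by -1.77 (adjusted p = 0.0288), Casp14 by -1.64 (adjusted p = 0.021) and Apod by -1.63 (adjusted p = 0.0124). Scoc stood apart, since its rise was larger on the drug, by 1.1 (adjusted p = 0.0432).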

How the results depend on the processing

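The count of 405 changed genes was within 1.5 times of itself under 5 of 23 alternatives. It was 8 with no filter, 73 with the filter at the 25th percentile and 711 at the 75th. It was 151 with the mean of a gene's probe sets, 1233 with every probe set tested, 17 on the 6 vehicle arrays and 812 on 11 arrays. With TG vehicle 3 grouped as TG tamoxifen it was 0 (1395 at an unadjusted p under 0.05), with both arrays of conflicting labels left out 5, and with the beta-actin covariate 0 (1451 at an unadjusted p under 0.05). With the replicate number as a block it was 91, with an intensity trend 626 and with arrayWeights 1283. Leaving out 1 vehicle array gave 2 to 625. Esr1 stayed higher throughout, but by 3.43 with the mean of its probe sets, of which 2 are dim (adjusted p = 0.0322). It no longer passed with no filter (10.32), with TG vehicle 3 regrouped or both conflicting arrays out (10.38 each) or with the covariate (11.23), and leaving out 1 vehicle array gave 10.04 to 10.82 with adjusted p of 0.0168 to 0.0752. The beta-actin ratio was lower in TG vehicle under all 8 alternatives. Of 163 further named genes, 24 of the 103 not called had the other sign under 1 or more alternatives, as did 4 of the 60 called: Dnajb5 (0.16) and Son (0.0048) with the mean of probe sets, and Rbm25 (0.35) and Tmem33 (-0.56) with the covariate. The causes were not tested. With 3 arrays a group, and no detection calls used here, dim genes are the least certain.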

Other observations

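The fit on the 6 vehicle arrays alone, which no tamoxifen array enters, called 17 genes, and some of these had no place among the genes described above. They are named here after their values were seen. Akt1, the kinase of insulin and growth factor signalling, read 13.98, 13.87 and 13.46 in NTG vehicle and 12.11, 12.23 and 12.19 in TG vehicle, a change of -1.59 ± 0.191 (adjusted p = 0.0347 by limma). Tsc22d4, of the TSC22 family, changed by -1.56 ± 0.166 (adjusted p = 0.0209) and Lbh, a transcription cofactor of the developing limb and heart, by -1.63 ± 0.162 (adjusted p = 0.0209). Crim1, a membrane protein that binds bone morphogenetic proteins, changed by -1.59 ± 0.197, Thsd7a by -1.45 ± 0.18 and Git1, an adaptor of focal adhesions, by -1.39 ± 0.157. These 6 also passed in the 12-array fit. Scaf1 (-1.54 ± 0.174), the chromatin remodeller Chd7 (-1.43 ± 0.163) and the secreted protein Cytl1 (1.99 ± 0.206) passed on the 6 arrays and not on all 12.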
